A study of Mus musculus with 16 samples.

Results

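A set of 9 genes that mark or restrain blood stem cells was followed in mouse bone marrow cells with and without Tet2: Hlf, Mllt3, Hoxb5, Prdm16, Ndn, Cdkn1c, Fgd5, Rarb and Pdzk1ip1. They were chosen by name, with earlier results of these data known. Each is the row whose Ensembl identifier carries that symbol, and all 9 were found among the 6288 genes of the table. The assay was bulk RNA sequencing of marrow labelled CD45-positive, after depletion of lineage marker cells and selection on Kit and then Sca1. Such a selection is meant to enrich stem cells and multipotent progenitors (LSK cells). Marker RNA of basophils, red cell precursors and other cells was also read, with values given below. The 16 libraries formed 4 groups of 4 replicates. Tet2-deficient physioxia cells came from Tet2-/- mice (CD45.2) and stayed at 3% oxygen, and Tet2-deficient air cells were the same kind of cells moved to about 21% oxygen for 6 hours. WT physioxia and WT air cells came from C57Bl/6J mice (CD45.2) and were handled the same way. All mice were 3 to 4 months old and of both sexes, and all marrow was harvested and enriched at 3% oxygen, so the air groups also began in physioxia. The labels do not state whether a replicate was 1 mouse or a pool, nor a promoter or cell type limiting the Tet2 deletion.

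Most blood stem cells rest outside the cell cycle, and their long-term function depends on staying there much of the time. A small set of nuclear factors keeps their identity: Hlf is a PAR bZIP transcription factor linked to stem cell quiescence, Hoxb5 a homeobox factor, Prdm16 a zinc finger regulator and Mllt3 a histone acylation reader of the super elongation complex. Ndn (necdin, a growth suppressor) and Cdkn1c (p57, an inhibitor of cyclin-dependent kinases) restrain division and are imprinted, while Rarb is a nuclear receptor for retinoic acid. Fgd5, an exchange factor for the GTPase Cdc42, and Pdzk1ip1, a small membrane protein, are used in reporter mice to mark stem cells.

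The promoters of the 4 members whose 8 Tet2-deficient libraries all lay above all 8 WT libraries (Hlf, Mllt3, Ndn and Pdzk1ip1, values below) are shown because these genes separated the genotypes most cleanly. Each is the 250 bases before a start site in the RefSeq GRCm38.p6 promoter table, read 5′ to 3′ on the gene's strand, with CG dinucleotides, the sites of DNA methylation that Tet enzymes oxidise, in capitals. The windows are chr11:90390918-90391167 (minus strand) for Hlf, chr4:88033408-88033657 (minus strand) for the upstream start of Mllt3, chr7:62348027-62348276 (plus strand) for Ndn and chr4:115088458-115088707 (plus strand) for Pdzk1ip1. The Ndn window lies inside the annotated gene (62346569 to 62350262), not before its outermost start.
Hlf: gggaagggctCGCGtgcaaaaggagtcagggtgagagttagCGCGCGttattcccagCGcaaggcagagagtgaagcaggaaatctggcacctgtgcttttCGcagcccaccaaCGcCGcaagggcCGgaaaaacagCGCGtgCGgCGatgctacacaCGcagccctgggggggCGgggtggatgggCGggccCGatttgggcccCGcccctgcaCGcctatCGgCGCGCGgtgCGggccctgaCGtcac
Mllt3: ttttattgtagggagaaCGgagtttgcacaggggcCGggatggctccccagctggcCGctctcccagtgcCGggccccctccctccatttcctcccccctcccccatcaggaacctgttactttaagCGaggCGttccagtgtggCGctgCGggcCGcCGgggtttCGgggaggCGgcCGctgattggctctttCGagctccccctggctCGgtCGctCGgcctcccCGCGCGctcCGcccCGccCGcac
Ndn: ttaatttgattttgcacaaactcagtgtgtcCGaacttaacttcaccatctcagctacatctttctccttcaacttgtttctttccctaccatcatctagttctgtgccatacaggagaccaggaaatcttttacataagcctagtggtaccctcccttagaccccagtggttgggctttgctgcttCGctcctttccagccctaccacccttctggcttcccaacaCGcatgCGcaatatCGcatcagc
Pdzk1ip1: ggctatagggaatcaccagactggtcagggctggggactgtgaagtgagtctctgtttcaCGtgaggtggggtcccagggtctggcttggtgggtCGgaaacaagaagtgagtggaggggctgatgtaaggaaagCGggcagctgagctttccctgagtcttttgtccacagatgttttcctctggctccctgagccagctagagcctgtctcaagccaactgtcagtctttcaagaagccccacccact
Hlf held 26 CG dinucleotides and the upstream Mllt3 start 23, against 5 in Ndn and 3 in Pdzk1ip1. The median of all 32851 promoters was 6. Of all promoters, 9.59% had at least as many CG as Hlf, 13.3% as Mllt3, 55.6% as Ndn and 71.0% as Pdzk1ip1. The 4 windows thus included CG-rich and CG-poor ones, and no methylation was measured here. A second, downstream window of Mllt3 held 4. The table matched 7 of the 9 members with 8 windows, and Hoxb5 and Cdkn1c were not matched. On either strand, GATAA (a core of GATA factor sites) was in 0 of these 8 windows and in 22.6% of all promoters. ACGTG (a core of hypoxia response elements) was in 1 of the 8, that of Pdzk1ip1, where its 2 matches overlap on opposite strands, and in 16.6% of all. GGAA (a core of ETS sites) was in 7 of the 8 and in 93.4% of all.

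Values are normalized counts, read counts divided by 1 size factor per library, and groups are given as mean ± SD (n = 4). Log2 differences are limma fits on the log2 of the normalized count plus 1, with their SE, and a gene is said to have risen or fallen where the Benjamini-Hochberg adjusted p over the 6110 genes tested was under 0.05. Summed reads ran from 7.77 to 15.7 M per library. All 9 members passed the minimum of 10 normalized counts in at least 4 libraries. Genes of the table had already been chosen for differences, by a rule not given in the sources used here: for 97.9% of the tested genes the smallest DESeq2 p over 4 pairwise comparisons was under 0.05, and percentages of called genes therefore do not describe the transcriptome. Tet2 itself averaged 482 ± 35.9 in Tet2-deficient physioxia and 554 ± 54.1 in Tet2-deficient air, against 731 ± 97.4 in WT physioxia and 855 ± 157 in WT air. A count over the whole gene also covers exons outside a deletion. Of 5 markers of the sort or of subsets of LSK cells, Kit was in the table and averaged 6490.0 ± 810.2, 6737 ± 1095, 3234 ± 824 and 4099 ± 453 in the same 4 groups in that order. Ly6a, Cd34, Flt3 and Ptprc were not in the table, so they could not be checked.

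Tet2-deficient cells had higher levels of most of the 9 genes, a set chosen with earlier results of these data known. In air, 8 of 9 rose in Tet2-deficient cells, by 1.61-fold (Hlf) to 4.77-fold (Ndn), and none fell. In the same comparison 79.5% of all tested genes were called, 42.1% higher and 37.4% lower. In physioxia 7 of 9 rose, by 1.56-fold (Hlf) to 3.55-fold (Ndn), with 69.4% of all genes called, 35.9% higher and 33.6% lower. When the annotated genes outside the table were counted in the adjustment as unchanged, 5 of 9 passed in each condition. Hoxb5, Prdm16 and Cdkn1c were then lost in air (limma adjusted p = 0.141, 0.357 and 0.109), and Prdm16 and Rarb in physioxia (adjusted p = 0.0615 and 0.226). The median log2 difference of the 9 was 1.27 in air, against 0.24 over all tested genes, and 1.02 in physioxia, against 0.06. The libraries of the groups did not overlap, with the Tet2-deficient ones higher, for 7 of 9 genes in air and 5 of 9 in physioxia, where the shares over all genes were 35.2% and 29.7%. The reverse, with the Tet2-deficient ones lower, held for 0 of 9 members, against 35.5% and 28% of all genes. In bulk samples, fewer cells of a type and less RNA per cell cannot be told apart.

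**Figure D1:**
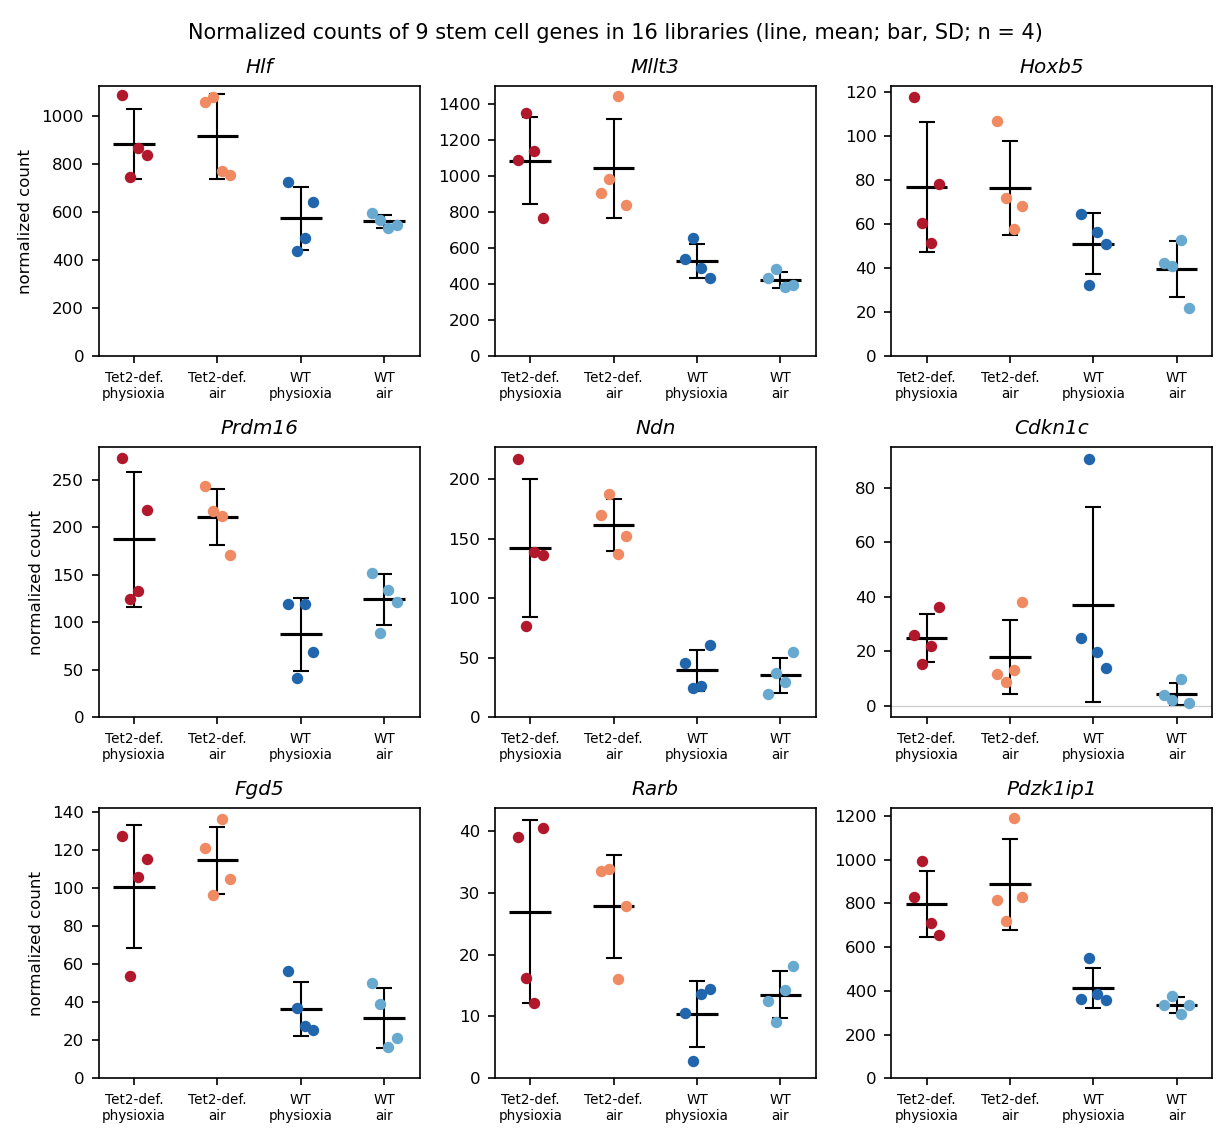
Normalized counts (y axis) of the 9 genes in each library, by group (x axis), with points for libraries, a line for the group mean and bars for the SD (n = 4). Hlf, Mllt3, Ndn and Pdzk1ip1 lie higher in all 8 Tet2-deficient libraries than in any WT library, and Cdkn1c is lowest in WT air (0.957 to 9.91).

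Hlf (ENSMUSG00000003949; GRCm38 chromosome 11, 90336536 to 90390895) had 1089, 745, 869.8 and 838 normalized counts in Tet2-deficient physioxia and 1059.8, 1079, 774 and 754 in Tet2-deficient air. It had 726, 439.9, 492 and 641 in WT physioxia and 596, 569.5, 534 and 548 in WT air. The lowest Tet2-deficient library (745) lay just above the highest WT library (726), so the separation was complete but narrow. The log2 difference between Tet2-deficient and WT cells was 0.69 ± 0.17 in air (limma adjusted p = 0.0032), and it was 0.64 ± 0.17 (adjusted p = 0.00491) in physioxia.

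Among the chromatin-bound regulators, Mllt3 (ENSMUSG00000028496; chromosome 4, 87769925 to 88033364) had 1088, 1350.3, 1136 and 765 in Tet2-deficient physioxia and 903, 980.3, 1445 and 839.7 in Tet2-deficient air. Its WT values were 539, 656, 490.4 and 436 in physioxia and 433, 485, 384 and 393 in air. No Tet2-deficient library reached down to the WT range, and Mllt3 rose by 1.27 ± 0.19 in air (adjusted p = 7.36e-05) and 1.02 ± 0.19 in physioxia (adjusted p = 0.00046). Prdm16 (ENSMUSG00000039410; chromosome 4, 154316125 to 154636873) had 273, 124, 133 and 218 in Tet2-deficient physioxia and 243, 217, 212 and 171 in Tet2-deficient air, against 119, 41.5, 119.7 and 69.1 in WT physioxia and 152, 88.5, 134 and 122 in WT air. Within each oxygen condition its genotypes did not overlap, but 2 Tet2-deficient physioxia libraries (124 and 133) lay inside the WT air range. It rose by 0.78 ± 0.33 in air (adjusted p = 0.0393) and 1.14 ± 0.33 in physioxia (adjusted p = 0.00677). The call in air was lost on leaving out any 1 of 6 libraries, WT air replicates 2, 3 and 4 and Tet2-deficient air replicates 1, 2 and 3 (adjusted p = 0.0519 to 0.11), and under quantile normalization (0.51, adjusted p = 0.159).

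Hoxb5 (ENSMUSG00000038700; chromosome 11, 96303336 to 96306121) was read at lower counts, with 118, 60.5, 51.6 and 78.2 in Tet2-deficient physioxia and 107, 72.1, 58.0 and 68.6 in Tet2-deficient air. It had 64.9, 32.3, 56.4 and 51.2 in WT physioxia and 42.3, 41.3, 52.9 and 22.0 in WT air. The groups were apart in air and overlapped in physioxia. Hoxb5 rose in air (0.96 ± 0.32, adjusted p = 0.0155), and in physioxia its difference was 0.55 ± 0.32 (95% interval −0.13 to 1.24, adjusted p = 0.135). Without WT air replicate 4, its lowest library, the air difference was 0.71 (adjusted p = 0.0555).

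The genes that restrain division differed from each other. Ndn (ENSMUSG00000033585; chromosome 7, 62346569 to 62350262) had 217, 76.7, 139 and 137 in Tet2-deficient physioxia and 170.2, 188, 137 and 152 in Tet2-deficient air. Its WT values were 46.01, 24.9, 26.3 and 60.6 in physioxia and 19.2, 37.2, 29.7 and 54.5 in air. All Tet2-deficient libraries were above all WT libraries, and Ndn had the largest genotype difference of the 9 in both conditions, 2.25 ± 0.36 in air (adjusted p = 0.000114) and 1.83 ± 0.36 in physioxia (adjusted p = 0.00063).

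Cdkn1c (ENSMUSG00000037664; chromosome 7, 143458339 to 143461050) had 26.0, 15.1, 21.7 and 36.1 in Tet2-deficient physioxia and 11.46, 8.68, 13.0 and 38.1 in Tet2-deficient air. It had 24.8, 90.4, 19.5 and 13.7 in WT physioxia but 3.85, 2.01, 9.91 and 0.957 in WT air, from 4, 2, 9 and 1 reads. WT air held the lowest values and overlapped only Tet2-deficient air, while the other 3 groups overlapped each other. In air Cdkn1c rose in Tet2-deficient cells (1.93 ± 0.62, adjusted p = 0.012), although 1 Tet2-deficient library (8.68) lay below the highest WT library (9.91). In physioxia the difference was −0.24 ± 0.62 (95% interval −1.54 to 1.07, adjusted p = 0.743), and 0.32 without WT physioxia replicate 2, the library at 90.4. The call in air was lost without Tet2-deficient air replicates 3 and 4 together (1.39, adjusted p = 0.117) and without WT air replicates 1 and 2 together (1.79, adjusted p = 0.0657).

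Fgd5 (ENSMUSG00000034037; chromosome 6, 91978878 to 92076004) had 128, 54.01, 106 and 115 in Tet2-deficient physioxia and 121, 96.4, 136 and 105 in Tet2-deficient air. Its values were 56.6, 36.9, 27.2 and 25.6 in WT physioxia and 49.99, 39.2, 16.5 and 21.0 in WT air. For this gene 7 of 8 Tet2-deficient libraries were above all WT libraries, the exception being Tet2-deficient physioxia replicate 2 (54.01). Fgd5 rose by 1.94 ± 0.36 in air (adjusted p = 0.000396) and 1.44 ± 0.36 in physioxia (adjusted p = 0.00324). Pdzk1ip1 (ENSMUSG00000028716; chromosome 4, 115088708 to 115093899) had 829, 992, 711 and 653 in Tet2-deficient physioxia and 815, 717, 1191 and 827 in Tet2-deficient air, against 363, 549.7, 384 and 360.2 in WT physioxia and 335, 377, 292 and 337 in WT air. The genotypes did not overlap, and it rose by 1.38 ± 0.18 in air (adjusted p = 2.01e-05) and 0.95 ± 0.18 in physioxia (adjusted p = 0.000527).

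Rarb (ENSMUSG00000017491; chromosome 14, 16430839 to 16819156) had the lowest mean of the 9 per kilobase of exon in every group but WT air, where Cdkn1c was lower. It had 38.98, 16.2, 12.2 and 40.4 in Tet2-deficient physioxia and 33.6, 33.9, 16.01 and 27.9 in Tet2-deficient air, against 10.62, 2.77, 13.6 and 14.5 in WT physioxia and 12.5, 9.06, 14.3 and 18.2 in WT air. The lowest Tet2-deficient values fell inside the WT range in both conditions. Its difference in air was 0.97 ± 0.48 (95% interval −0.05 to 2.00, adjusted p = 0.0729), and it rose in physioxia (1.31 ± 0.48, adjusted p = 0.0249). The physioxia call was lost without WT physioxia replicate 2 (0.84, adjusted p = 0.0864), without Tet2-deficient physioxia replicate 1 (1.08, adjusted p = 0.0777) or replicate 4 (1.06, adjusted p = 0.0793), under quantile normalization (0.92, adjusted p = 0.102) and in a fit of the physioxia groups alone (1.31, adjusted p = 0.0629). In air Rarb passed in a fit of the air groups alone (0.97, adjusted p = 0.024) and in a fit without WT physioxia replicate 2 (adjusted p = 0.032), which bears on air through the shared spread.

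**Figure D2:**
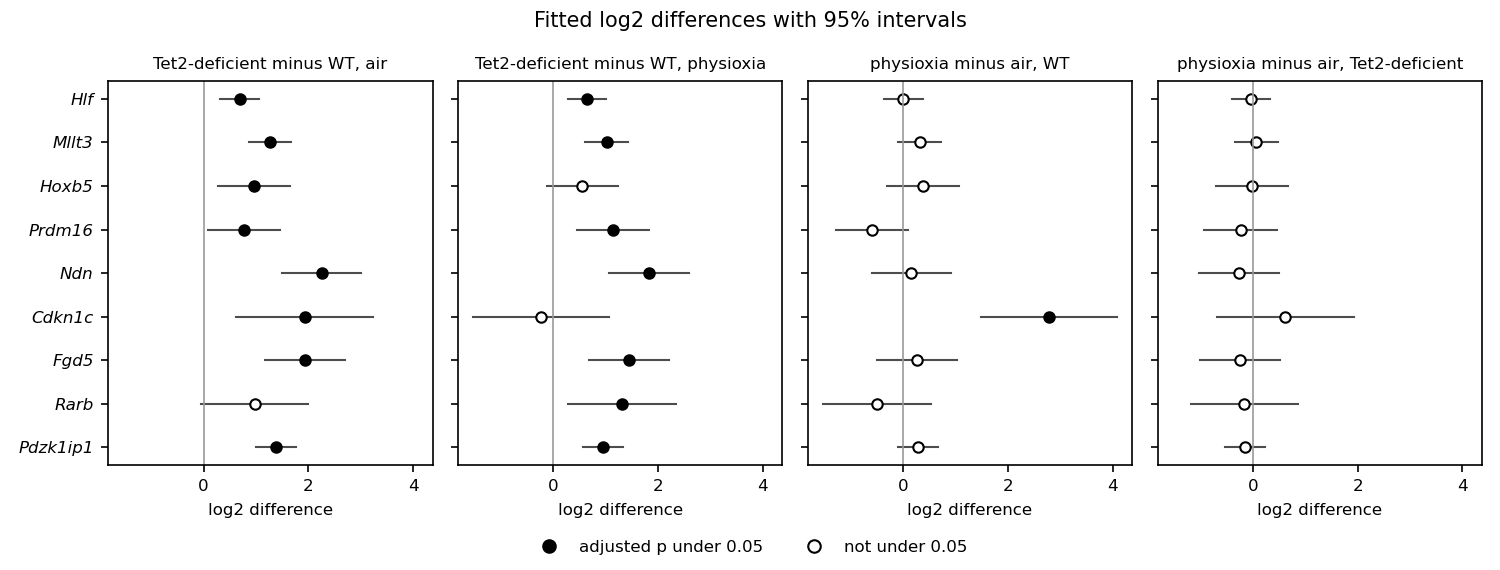
Log2 differences (x axis) of the 9 genes (y axis) in 4 comparisons, with points for limma estimates, lines for 95% intervals and filled points for an adjusted p under 0.05. In air 8 of 9 genes are filled for Tet2-deficient minus WT, 7 in physioxia, and for physioxia minus air only Cdkn1c in WT (2.79).

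Over all 16 libraries, 4 of the 9 genes (Hlf, Mllt3, Ndn and Pdzk1ip1) had every Tet2-deficient library above every WT library, where 17.5% of all tested genes did. Hlf ranged over 745, 854 and 1089 (lowest, median and highest) in Tet2-deficient cells, against 439.9, 559 and 726 in WT cells, and Ndn over 76.7, 145 and 217, against 19.2, 33.5 and 60.6. The other 5 overlapped to different degrees. Above all WT libraries were 7 of 8 Tet2-deficient libraries for Fgd5, 6 for Prdm16, 5 each for Hoxb5 and Rarb, and 0 for Cdkn1c.

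Oxygen moved 1 of the 9 genes past the test. Physioxia was higher than air for Cdkn1c in WT cells, 37.1 ± 35.8 against 4.18 ± 4.00, a log2 difference of 2.79 ± 0.62 (limma adjusted p = 0.0169). In this comparison 5.76% of all genes were called, 4.91% higher and 0.851% lower. The groups did not overlap, as for 7.82% of all genes in this direction and 3.16% in the other. Any pairing of their libraries therefore puts physioxia higher, and by replicate number the Cdkn1c differences were 0.91 to 4.92 on the log2 scale. With a pseudocount of 5 the difference was 1.97 (adjusted p = 0.0237), so its size depends on how few reads WT air held. The call was lost without WT air replicate 2 (2.63, adjusted p = 0.0535) or replicate 4 (2.42, adjusted p = 0.0607), without WT physioxia replicate 2 (2.23, adjusted p = 0.0531) and in a fit of the 2 WT groups alone, both without pairing (adjusted p = 0.0642) and with the 4 WT pairs as a block (adjusted p = 0.0761). Among Tet2-deficient libraries Cdkn1c stood at 24.7 ± 8.80 in physioxia and 17.8 ± 13.6 in air (0.62 ± 0.62, 95% interval −0.69 to 1.92). The test of the difference between the genotypes' oxygen differences gave −2.17 ± 0.87 for Cdkn1c (unadjusted p = 0.0242, limma adjusted p = 0.552), so it did not pass.

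The other 8 genes did not pass for oxygen in either genotype. In WT cells Mllt3 (0.31 ± 0.19) and Pdzk1ip1 (0.29 ± 0.18) were above air in 4 of 4 replicate numbers, and Prdm16 (−0.60 ± 0.33) and Rarb (−0.50 ± 0.48) were below air in 4 of 4, with adjusted p of 0.33 to 0.615. Paired within WT alone, these 4 had adjusted p of 0.236 to 0.474. Hlf differed by 0.005 ± 0.17 (95% interval −0.36 to 0.37), and its sign changed under quantile, TMM, edgeR and DESeq2 scaling. In Tet2-deficient cells the 8 differences ran from −0.27 (Ndn) to 0.06 (Mllt3), with 0% of all genes called in either direction by limma and 8 by DESeq2. Of the 6110 tested, 280 were at an unadjusted limma p under 0.05. The groups did not overlap for 0 of 9 members, against 2.32% of all genes higher and 1.42% lower in physioxia. For the genotype by oxygen test, 0% were called by limma, 546 of 6110 were at an unadjusted limma p under 0.05 and 10 were called by DESeq2.

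Other genes of cell cycle restraint were called in both directions by genotype. Over all tested genes, 42.1% rose and 37.4% fell in air, and 35.9% rose and 33.6% fell in physioxia. Of 22 further CDK inhibitors and quiescence regulators, 11 were tested, and 3 rose and 5 fell in Tet2-deficient cells in each oxygen condition. Btg2, an antiproliferative gene, was at 12649.9 ± 1459 in Tet2-deficient physioxia and 12322.5 ± 694.3 in Tet2-deficient air, against 4263 ± 913 and 4758 ± 377 in the WT groups. It rose by 1.37 ± 0.13 in air (adjusted p = 7.71e-07), while Cdkn2d, which encodes the CDK inhibitor p19, fell by 0.76 on the log2 scale (SE 0.15, adjusted p = 0.000665). For oxygen in WT cells 2 of the 11 rose, Cdkn2c, which encodes the CDK inhibitor p18 (954 ± 325 in physioxia against 294 ± 55.9 in air, 1.64 ± 0.43, adjusted p = 0.0372), and Lin54, a DNA-binding subunit of the DREAM complex (949 ± 180.4 against 386 ± 64.5, 1.29 ± 0.26, adjusted p = 0.0126). Like Cdkn1c, both had their lowest group mean in WT air. Of all tested genes, 4.91% rose for oxygen in WT. Of S phase genes, 10 of 27 were tested, and 8 rose in air and 7 in physioxia in Tet2-deficient cells with none lower. Of G2/M genes, 7 of 26 were tested, with 4 higher and 2 lower in air and 2 higher in physioxia.

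Relatives of Hlf and Mllt3 were called in both directions, in lists too short to set apart from the shares over all genes. Those shares were 42.1% higher and 37.4% lower in air, and 35.9% higher and 33.6% lower in physioxia. Hlf belongs with the PAR bZIP and clock output factors, of which 7 of 11 others were tested. In Tet2-deficient cells 2 rose and 5 fell in air, and 1 rose and 3 fell in physioxia. Nfil3, a repressor at PAR bZIP sites, averaged 213 ± 63.4 in Tet2-deficient physioxia and 299.8 ± 109 in Tet2-deficient air, against 790.1 ± 262 in WT physioxia and 574 ± 121 in WT air, and fell by 1.87 on the log2 scale in physioxia (SE 0.29, adjusted p = 9.64e-05). Of partners of Mllt3 in the super elongation and Dot1l complexes, 7 of 16 were tested, with 1 higher and 3 lower in air and 1 higher and 2 lower in physioxia. Aff4, the scaffold of the super elongation complex, fell by 0.89 in air (SE 0.14, adjusted p = 8.45e-05), whereas Ell2, an elongation factor, rose by 1.31 in air (SE 0.52, adjusted p = 0.0319) and by 2.35 in WT physioxia against WT air (SE 0.52, adjusted p = 0.0174).

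Few homeobox and Prdm relatives were in the table. Of 23 other Hox, Meis and Pbx genes 3 were tested: Hoxb2, a neighbour family member of Hoxb5, rose in air (1.67 ± 0.56, adjusted p = 0.0157), as did Pbx3, a Hox cofactor (0.95 ± 0.29, adjusted p = 0.00968), while Hoxa7 fell (−0.39 ± 0.13, adjusted p = 0.0139). In physioxia only Hoxa7 passed (−0.30 ± 0.13, adjusted p = 0.0485). Prdm4 was the 1 tested gene of 14 other Prdm family members with Mecom. It fell in Tet2-deficient cells in physioxia (−1.48 ± 0.34, adjusted p = 0.00176) and rose in WT physioxia against WT air (1.80 ± 0.34, adjusted p = 0.00964), opposite in sign to Prdm16 in both comparisons, though Prdm16 did not pass in the second.

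Ndn and Cdkn1c are imprinted, and of 36 other imprinted genes 13 were tested. Of these 9 rose and 3 fell in Tet2-deficient cells in air, and 10 rose and 1 fell in physioxia, with medians of 0.76 and 0.85. Over all tested genes, 42.1% rose and 37.4% fell in air, with a median of 0.24. In physioxia these values were 35.9%, 33.6% and 0.06. Dlk1, a Notch-related regulator of progenitors, averaged 169.5 ± 129.9 in Tet2-deficient physioxia and 156 ± 77.2 in Tet2-deficient air, against 22.0 ± 7.48 in WT physioxia and 24.99 ± 7.43 in WT air (2.70 ± 0.44 in physioxia, adjusted p = 0.000147). Grb10, a growth factor receptor adaptor, rose by 1.04 ± 0.15 in physioxia (adjusted p = 6.78e-05). For Rarb, 9 of 21 other retinoid receptor and metabolism genes were tested, with 5 higher and 4 lower in air and 4 higher and 2 lower in physioxia. The retinoic acid synthesis enzyme Aldh1a1 rose by 1.76 ± 0.30 in air (limma adjusted p = 0.000202).

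Other long-term stem cell genes, listed with earlier results of these data known, moved as most of the 9 did. Of 28 listed, the 15 in the table were tested, and Mecom, Meis1, Gata2 and Cd34 were among those absent. In Tet2-deficient cells 12 rose and 3 fell in air, against 42.1% and 37.4% of all tested genes. In physioxia 12 rose and 2 fell, against 35.9% and 33.6%. The median differences of the 15 were 0.97 in air and 0.82 in physioxia. For oxygen 0 of 15 passed in either genotype, where 5.76% of all genes were called in WT and 0% in Tet2-deficient cells. Gfi1b, a repressor required in stem cells and in red cell and platelet precursors, averaged 2785 ± 468 in Tet2-deficient physioxia and 2741 ± 479 in Tet2-deficient air, against 1226 ± 276 in WT physioxia and 1056 ± 169 in WT air (1.38 ± 0.18 in air, adjusted p = 2.1e-05). The endothelial and stem cell receptor Robo4 rose by 1.32 ± 0.23 and the adhesion molecule Esam by 0.97 ± 0.17 in air (adjusted p = 0.000218 and 0.000225). Kit, the receptor used in the sort, rose by 0.71 ± 0.18 in air (adjusted p = 0.00361) and 1.04 ± 0.18 in physioxia (adjusted p = 0.000242). The 3 that fell in air, named after their values were seen, were Eya1 (−1.47 ± 0.30), Bmpr1a (−1.44 ± 0.51) and Itga2b (−0.50 ± 0.22).

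**Figure D3:**
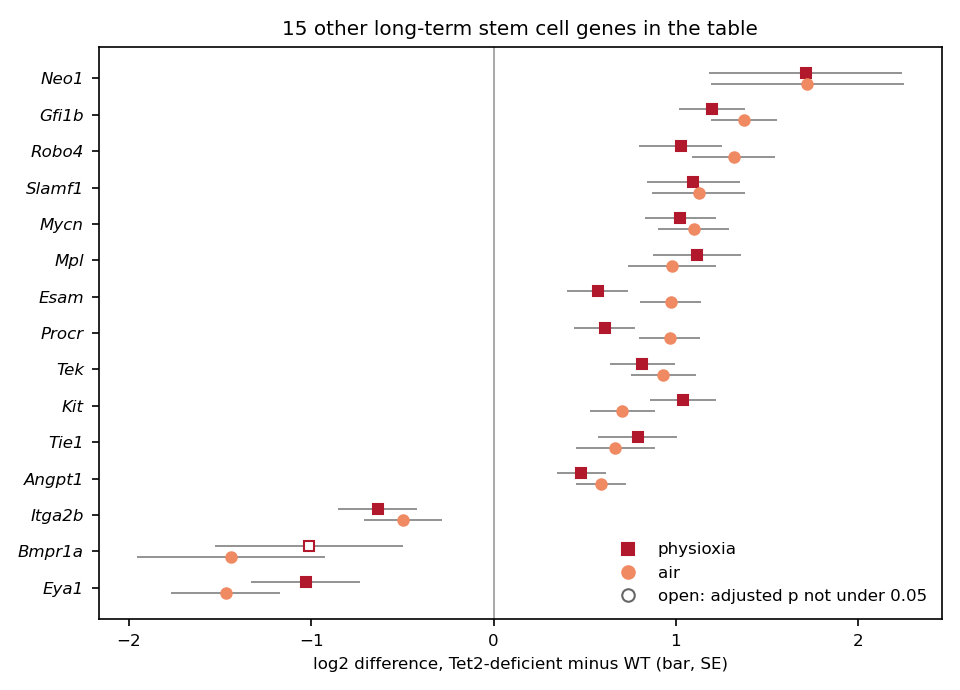
Log2 differences (x axis, bar for SE) between Tet2-deficient and WT cells for the 15 other long-term stem cell genes (y axis), as squares in physioxia and circles in air, open where the adjusted p was not under 0.05. There 12 of 15 genes lie right of 0 in both conditions, and Eya1, Bmpr1a and Itga2b lie left.

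Markers of other cells moved with genotype as well, where 42.1% of all tested genes rose and 37.4% fell in air. In physioxia the shares were 35.9% and 33.6%. Of 27 tested erythroid progenitor markers (30 listed), 26 rose in Tet2-deficient cells in air and 23 in physioxia, with none lower. Their summed normalized counts ran from 144879.5 to 395038 in Tet2-deficient physioxia and 151962 to 439595 in Tet2-deficient air, against 53974 to 97895 in WT physioxia and 44816 to 71663 in WT air. Of 17 basophil and mast cell markers (20 listed), 14 fell in air and 15 in physioxia, with 1 higher in air. Their sums ran from 139025 to 213294 and 110948 to 202807 in the Tet2-deficient groups in physioxia and air, against 423541 to 709743 and 524259 to 565499.9 in the WT groups. T and NK cell markers fell for 17 of 21 in each condition, with 1 higher (sums 18733 to 26466 and 18597 to 26688, against 28426 to 46699 and 31070.2 to 37227). Neutrophil markers fell for 9 of 10 in air and 8 in physioxia (sums 2243 to 3153 and 1819 to 2848, against 6494 to 16677 and 3746 to 13434), and monocyte markers for 6 and 5 of 8 (sums 8582 to 9637 and 9448 to 10048, against 15696 to 33821 and 15106 to 27591). Megakaryocyte markers were split (12 tested of 20, 6 higher and 3 lower in air, 4 and 4 in physioxia), as were B cell markers (3 of 16, 1 higher and 1 lower in air, 2 lower in physioxia). Of endothelial and stromal markers, where Fgd5 is also expressed, 11 of 25 were tested, with 7 higher and 3 lower in air and 5 and 3 in physioxia. This list shares Tek, Esam and Tie1 with the long-term stem cell list, so those counts are not independent. Cdh5, Pecam1, Kdr and Emcn were not in the table. For oxygen in WT, 1 megakaryocyte, 1 neutrophil and 1 endothelial or stromal marker rose, and 0 of the erythroid, basophil, T and NK, monocyte, B cell, S phase and G2/M genes passed. In that comparison 4.91% of all tested genes rose and 0.851% fell. The part of these cells in the genotype differences of the 9 genes was not tested.

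Within groups, the 9 genes split in how libraries varied. Mllt3 and Pdzk1ip1 were each other's nearest member in profile over the 16 libraries (root mean square difference 0.153 log2 after centring each gene). Both were high in the library of each group with the most erythroid marker RNA. In Tet2-deficient air replicate 3 the erythroid markers were 1.21 above their group mean (log2). There Mllt3 was 0.50, Pdzk1ip1 0.45, Fgd5 0.26 and Prdm16 0.02 above. Rarb deviated by −0.71, Hoxb5 by −0.35, Ndn by −0.23, Hlf by −0.22 and Cdkn1c by −0.19. In WT physioxia replicate 2, with erythroid markers 0.55 above, Cdkn1c was 1.66, Pdzk1ip1 0.43 and Mllt3 0.32 above, while Rarb deviated by −1.41, Prdm16 by −0.93 and Hoxb5 by −0.61. Tet2-deficient physioxia replicate 2 (erythroid 1.12 above) had 7 of 9 genes below their group mean, all but Mllt3 and Pdzk1ip1, whereas replicate 1 of the same group had 9 of 9 above. Over all 16 libraries, the deviation had the sign of the erythroid list in 12 libraries for Mllt3 and 11 for Pdzk1ip1, against 2 for Rarb, 3 each for Hoxb5 and Prdm16, 5 each for Hlf and Ndn, 8 for Cdkn1c and 9 for Fgd5. These counts describe the libraries and rest on deviations that sum to 0 in each group. Without the library of each group highest on erythroid markers, 8 of 9 genes were called higher in air and 6 of 9 in physioxia, where Rarb was lost (1.02, adjusted p = 0.0523). In air the calls then included Rarb (1.05, adjusted p = 0.0421) and not Prdm16 (0.62, adjusted p = 0.0695), and for oxygen in WT Cdkn1c was no longer called (2.07, adjusted p = 0.17). This choice of libraries was made after seeing the data. The libraries that remained still differed in erythroid RNA, with sums of 151962 to 215008 in Tet2-deficient air and 44816 to 54810 in WT air. Leaving out libraries therefore does not test the part of these cells in the genotype differences.

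**Figure D4:**
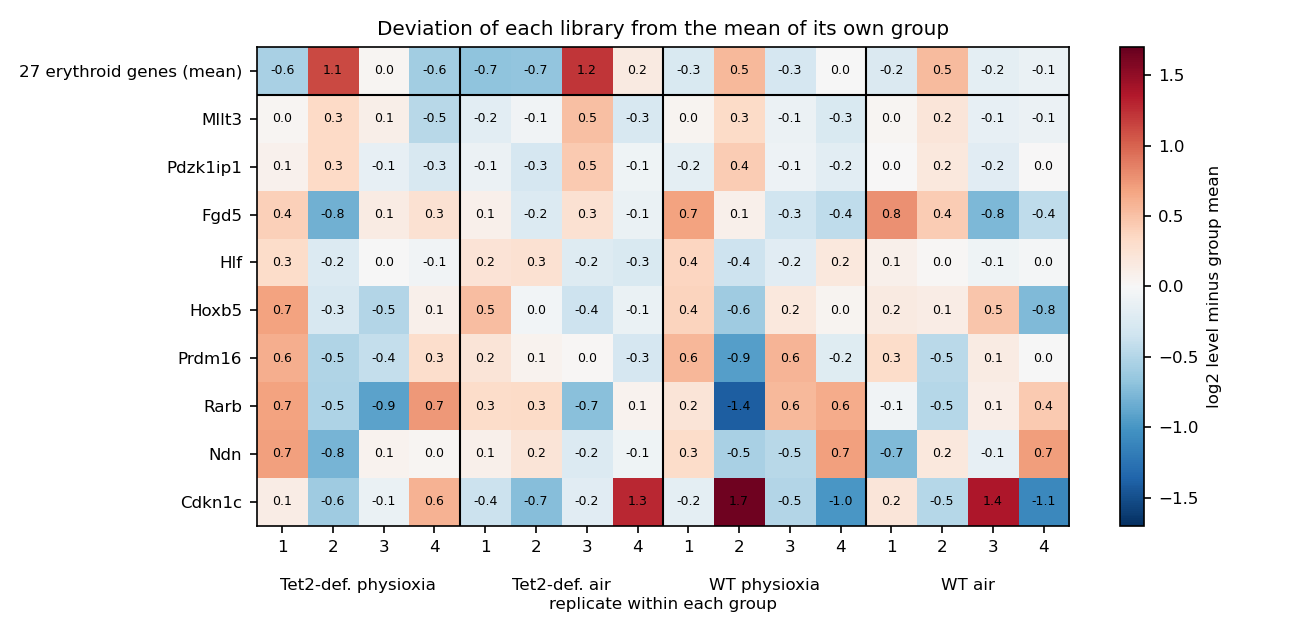
Deviation of each library (columns, by group and replicate) from its own group's mean, in log2 units (colour and number), for the mean of 27 erythroid genes (top row) and the 9 members (rows below). Mllt3 and Pdzk1ip1 are above the mean in Tet2-deficient physioxia 2, Tet2-deficient air 3, WT physioxia 2 and WT air 2, the libraries where the top row is highest, and Rarb is below it in all 4.

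Per kilobase of exon, the 9 genes covered a wide range of levels. Pdzk1ip1 was highest, at 448 ± 84.0 and 499 ± 117 normalized counts per kilobase in Tet2-deficient physioxia and air, against 233 ± 51.1 and 188 ± 19.6 in WT. Hlf followed at 133 ± 21.8 and 137 ± 26.5, against 86.0 ± 19.7 and 84.1 ± 4.04, and then Mllt3 at 90.4 ± 20.1 and 86.8 ± 22.9, against 44.2 ± 7.79 and 35.3 ± 3.82. These 3 kept their order in every group, but the libraries of Hlf and Mllt3 overlapped in both Tet2-deficient groups. Below them the order depended on genotype. In both Tet2-deficient groups it ran Ndn, Hoxb5, Prdm16, Fgd5, Cdkn1c and Rarb, and each neighbouring pair overlapped between libraries. In WT groups Hoxb5 was above Ndn, at 18.4 ± 4.96 against 10.7 ± 4.63 in physioxia and 14.2 ± 4.61 against 9.52 ± 4.02 in air, with overlapping libraries. Cdkn1c had rank 5 of 9 in WT physioxia (18.2 ± 17.6) and rank 9 in WT air (2.05 ± 1.96).

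The table genes closest to the mean centred profile of the 9 over the 16 libraries, among 4671 candidates, were Maml2 (root mean square difference 0.163 log2), a Notch coactivator, Nr4a1 (0.187), an immediate early nuclear receptor linked to stem cell quiescence, Morn4 (0.215), Eya2 (0.226) and Zdhhc24 (0.234). Among the members, Hlf (0.326) and Pdzk1ip1 (0.334) were nearest to that mean and Cdkn1c (1.20) farthest. Maml2 averaged 249.9 ± 35.2 in Tet2-deficient physioxia and 235 ± 18.6 in Tet2-deficient air, against 111 ± 16.3 in WT physioxia and 103 ± 12.0 in WT air. Among these candidates, which leave out the members themselves, those nearest to single members were Sestd1 for Hlf (0.158), Xrcc5 for Mllt3 and Pdzk1ip1 (0.169 and 0.189), Dusp4 for Hoxb5 (0.302), Arhgef40 for Prdm16 (0.306), Evc2 for Ndn (0.420), Gimap8 for Fgd5 (0.368), Cand2 for Rarb (0.337) and Ptges2 for Cdkn1c (0.534). Mllt3 and Pdzk1ip1 were nearer to each other (0.153) than to Xrcc5. Annotated antisense or overlapping transcripts lie at Hoxb5, Prdm16, Ndn, Cdkn1c, Fgd5 and Rarb, and whether counting used strand is not given in the sources used here, so reads of such transcripts cannot be told apart from those of these 6 genes.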

How the data were processed

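The deposited table held a signal made by the authors: DESeq2-normalized counts, in which each library's reads were scaled by its own size factor. All values (100%) were whole multiples of 1 read within 0.01, so reads were recovered. The programs FastQC, cutadapt, STAR, HTSeq and DESeq2 and the build GRCm38 are named, per the submitters' processing notes, without versions or roles. Coordinates and exon lengths came from GENCODE M21, and 6278 of 6288 genes had a symbol.

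Genes with at least 10 normalized counts in at least 4 libraries (6110, with 178 left out) were tested two-sided with limma 3.58.1 (R 4.3.3, trend) on log2(normalized count + 1). The 4 group means of the 16 libraries were fitted together, with Benjamini-Hochberg adjustment over all tested genes and a threshold of 0.05. The script was tested on simulated data. The 30 alternatives (16 leaving out 1 library) included edgeR 4.0.16 and DESeq2 1.42.0 on recovered reads.

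The members and gene lists were chosen with earlier results of these data known. Named from each list were up to 3 non-members with the smallest p for genotype in air and up to 2 for oxygen in WT, and named as alike were the 5 non-members (mean at least 50) nearest to the members' mean profile. Some results of these lists are not reported here. The labels say that enriched cells were split between physioxia and air. In WT, same-numbered libraries deviated together (correlations across genes 0.332, 0.178, 0.162 and 0.331), so their numbers pair them. Tet2-deficient ones did not (0.322, −0.275, 0.042 and −0.006), nor did numbers across genotypes. Tet2-deficient physioxia replicate 2 correlated at 0.500 with a Tet2-deficient air library of another number, and a pairing in another order was not tested.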

Additional observations from a re-analysis of the deposited data

Results flagged for a closer look

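A library far from the others of its group, by the gap to its nearest neighbour relative to the group's range, occurred 3 times among the 36 gene and group combinations examined, where chance flags about 1 in 20 groups. Cdkn1c was far higher in Tet2-deficient air replicate 4 (38.09 normalized counts) than in the other 3 libraries (8.68 to 13.0). Cdkn1c was also far higher in WT physioxia replicate 2 (90.38) than in the others (13.7 to 24.8). Pdzk1ip1 stood out in the same WT physioxia library (549.7, against 360.2 to 384 in the others), the one with the most erythroid marker RNA of its group, and the part of such cells was not tested.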

How the results depend on the processing

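The 15 genotype differences of members that passed kept direction in all 433 recomputations and stayed past the threshold in 409, with 24 lost, 11 of them Prdm16 in air and 7 Rarb in physioxia. Direction could not change in many of these, because each limma difference is between 2 group means. Replicate blocks, filters, fits of the compared groups, changes of adjustment and loss of a library of another group leave it as it was. Counting annotated genes outside the table as unchanged left 5 members called in air (2434 genes) and 5 in physioxia (2477 genes), and without Tet2-deficient air replicates 3 and 4 together 2760 genes were called in air. For oxygen in WT, 0 members were called with only the groups compared, without WT air replicates 1 and 2, without the 4 libraries highest on erythroid markers (a choice made after seeing the data), with the WT pairs alone as a block (also chosen after seeing the data) and with annotated genes counted, and 0 to 1 when leaving out single libraries. A minimum of 50 also gave 0, but it left 7 members to test and removed Cdkn1c. The genes called there numbered 548 by DESeq2, 0 without WT air replicates 1 and 2, 0 without the 4 erythroid-high libraries, 0 with annotated genes counted, and 128 to 554 when leaving out 1 library, against 352. In Tet2-deficient cells oxygen gave 1 gene with a pseudocount of 5, 8 by DESeq2, 152 without air replicates 3 and 4, and 0 to 1 leaving out 1 library. The interaction gave 10 genes by DESeq2 and 0 to 1 leaving out 1 library. With a replicate block over all libraries (genotype and number together for oxygen and the interaction), 8, 7, 1, 0 and 0 members were called in air, physioxia, WT oxygen, Tet2-deficient oxygen and the interaction, the same as without it, and 462 genes for oxygen in WT. With a replicate block in the WT libraries alone, 268 genes and 0 members were called there, Cdkn1c being lost at a limma adjusted p of 0.0761. Numbers did not pair the Tet2-deficient libraries or the genotypes. Outside WT oxygen, the block over all libraries therefore cannot show what pairing would change.

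Differences near 0 that changed sign were these. Cdkn1c by genotype in physioxia was 0.52 without the 4 erythroid-high libraries and −0.56 to 0.32 leaving out 1 library. Hlf for WT oxygen was −0.087 (quantile), −0.044 (TMM), −0.015 (edgeR) and −0.037 (DESeq2), and −0.12 to 0.12 leaving out 1 library. Ndn there was −0.13 without WT air replicates 1 and 2, and −0.090 to 0.40 leaving out 1 library. For Tet2-deficient oxygen, Fgd5 was 0.11 without the 4 libraries and Pdzk1ip1 0.040 without air replicates 3 and 4. Leaving out 1 library there gave −0.15 to 0.042 for Hlf, −0.052 to 0.23 for Mllt3, −0.25 to 0.15 for Hoxb5, −0.38 to 0.028 for Fgd5, −0.41 to 0.14 for Rarb and −0.26 to 0.00236 for Pdzk1ip1. For the interaction, Hlf was 0.018 (quantile) and −0.17 to 0.073 leaving out 1 library, and Rarb −0.027 without the 4 libraries and −0.13 to 0.64 leaving out 1. The cause was not tested. Quantile normalization moved the median of all genes in air by −0.12, and the 9 members kept positive differences there. Reads per library and few reads for Cdkn1c and Rarb limit precision.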
